A study of Mus musculus with 4 samples.

Results

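The 10 genes described here encode the fibroblast growth factor (FGF) receptors Fgfr1, Fgfr2, Fgfr3 and Fgfr4, the ligands Fgf2, Fgf6 and Fgf7, and the feedback inhibitors Spry2, Spry4 and Dusp6. They were taken by Ensembl identifier, matched to symbols through the GENCODE vM21 annotation, from the 20065 genes of the deposited RNA-seq table, and all 10 had a row. RNA-seq of total RNA depleted of ribosomal RNA was performed on the Ion Torrent Proton in 4 libraries of cultured muscle stem cells (MuSC, satellite cells) from limb and trunk muscles of adult C57BL/6 mice. The 2 Control libraries carried Pax7CreERT2/Prmt5+/loxP (+TAM), so they are called wild type in the labels although they hold the Cre driver and a floxed Prmt5 allele. The 2 Prmt5sKO libraries carried Pax7CreERT2/Prmt5loxP/loxP (+TAM). In this model a tamoxifen-inducible Cre made from the Pax7 locus removes Prmt5, an arginine methyltransferase, in MuSC and their progeny, and the methods describe cultured cells treated with 4-OH tamoxifen. The comparison asks which transcripts differ once Prmt5 is lost. The methods give a culture medium with serum and added basic FGF, the protein that Fgf2 encodes, for the isolated cells, so both genotypes are described as receiving a ligand from outside.

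FGF ligands bind receptor tyrosine kinases together with heparan sulphate chains, and the active receptor signals through docking proteins, Ras and the kinase cascade that ends in ERK. ERK activity induces its own inhibitors: Sprouty proteins restrain the receptor-to-Ras step and Dusp6 removes the activating phosphates from ERK. In muscle, FGF signalling is known for keeping satellite cells cycling and for opposing terminal differentiation. Fgfr1 and Fgfr4 are the receptors long associated with myogenic cells, and Fgf6 is a ligand largely restricted to skeletal muscle.

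Promoter sequences are shown for 4 genes on which the results turn, Spry2 and Dusp6 as inhibitors that ran together across the libraries, and Fgfr4 and Fgf6 as a receptor and a ligand with wide splits within a genotype. RefSeq windows (build GRCm38.p6) of 300 bases, 250 before the start site and 50 from it onwards, were read 5′ to 3′ on the strand of the gene, and 8 of the 10 genes matched a window used here. In Spry2 (chr14:105896770-105897069, minus strand) and Dusp6 (chr10:99262981-99263280, plus strand) the capitals mark CGGAA on either strand, the core letters bound by ETS factors, a family that includes ERK targets. In Fgfr4 (chr13:55152568-55152867, plus strand) and Fgf6 (chr6:127015292-127015591, plus strand) the capitals mark CANNTG, the E-box bound by myogenic basic helix-loop-helix factors.
Spry2: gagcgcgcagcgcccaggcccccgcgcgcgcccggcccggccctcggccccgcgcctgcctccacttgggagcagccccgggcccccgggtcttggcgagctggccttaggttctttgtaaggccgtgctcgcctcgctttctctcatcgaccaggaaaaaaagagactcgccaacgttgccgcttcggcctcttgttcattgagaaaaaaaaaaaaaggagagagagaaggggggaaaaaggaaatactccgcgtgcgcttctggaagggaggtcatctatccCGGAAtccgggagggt
Dusp6: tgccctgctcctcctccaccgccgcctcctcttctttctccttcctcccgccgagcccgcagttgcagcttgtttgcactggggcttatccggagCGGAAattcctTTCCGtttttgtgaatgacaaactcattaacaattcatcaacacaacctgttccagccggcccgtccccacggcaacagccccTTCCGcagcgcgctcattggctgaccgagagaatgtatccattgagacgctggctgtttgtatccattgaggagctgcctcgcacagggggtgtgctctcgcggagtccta
Fgfr4: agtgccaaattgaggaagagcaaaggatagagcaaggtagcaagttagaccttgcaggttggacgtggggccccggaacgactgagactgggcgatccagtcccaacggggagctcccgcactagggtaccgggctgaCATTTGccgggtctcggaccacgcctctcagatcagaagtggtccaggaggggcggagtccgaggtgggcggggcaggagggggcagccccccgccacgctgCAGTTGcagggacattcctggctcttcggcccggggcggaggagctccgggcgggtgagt
Fgf6: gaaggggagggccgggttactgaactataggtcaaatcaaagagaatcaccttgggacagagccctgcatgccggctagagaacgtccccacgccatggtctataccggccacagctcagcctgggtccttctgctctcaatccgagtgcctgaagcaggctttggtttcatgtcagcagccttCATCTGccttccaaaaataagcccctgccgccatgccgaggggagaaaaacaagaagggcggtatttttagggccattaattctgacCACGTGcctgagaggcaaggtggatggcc
CGGAA occurred 1 time in the Spry2 window and 3 times in that of Dusp6, while 29.9% of all 32851 windows held it at least 1 time. CANNTG occurred 2 times in each of the Fgfr4 and Fgf6 windows, and 72.3% of all windows held it. Neither motif was particular to the genes in which it is marked. Without being marked, CANNTG occurred 1 time in each of the Spry2 and Dusp6 windows. CGGAA, also not marked there, occurred 1 time in the Fgfr4 window and 0 times in that of Fgf6. The 2 motifs do not overlap in any printed window. A match of letters is a description of the window and not a bound site.

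The table holds the mean of normalized counts for each group, and the whole counts of the 2 libraries behind each mean were recovered from it. Since its columns name no replicates, the libraries of each genotype are called deeper and shallower by total count, and these totals ran from 13240754 to 20047430. Prmt5, as a check of the labels, had 2273 (deeper) and 2906 (shallower) normalized counts in Control against 244 (deeper) and 202 (shallower) in Prmt5sKO. All 8 myogenic identity markers, Pax7 and Myod1 among them, had a row. The shallower Prmt5sKO library stood apart: 21 of 21 muscle differentiation markers were highest in it, and their summed normalized counts were 88278 (deeper) and 129558 (shallower) in Control against 89765 (deeper) and 552814 (shallower) in Prmt5sKO. The order within Control rested on Ttn: 20 of the 21 markers were higher in the deeper Control library, and without Ttn the sums there were 49129 (deeper) and 39525 (shallower). Without Ttn the Prmt5sKO sums were 61338 (deeper) and 381802 (shallower), both above Control. For 15 of the 21 markers each Prmt5sKO library exceeded each Control library, beside 25.2% of all genes tested. The endothelial and haematopoietic markers summed to between 56.3 and 163 in every library, and Ptprc and Tyrobp, which define blood cells, had no row. limma-voom tested the 16212 genes whose normalized counts averaged 5 or more, and it called 0 of them (0%) under the joint threshold used below, a 2-fold difference or more with an adjusted p no higher than 0.05. At an unadjusted p under 0.05 it gave 2101 genes, or 13% of those tested. The smallest adjusted p of the whole comparison, 0.193, was reached by Prmt5. Even the deleted gene thus did not pass, so failing the threshold does not show that a gene is unchanged. The paper, using DESeq2 with the same fold and adjusted p limits, did report differentially expressed genes. All normalized counts below were scaled by trimmed means (TMM), values are listed in the order deeper and then shallower library, and adjusted p-values are from limma-voom with Benjamini-Hochberg adjustment over all genes tested. The labels do not say whether the 2 libraries of a genotype came from separate animals, so the p-values measure only the spread between these libraries, which may be technical.

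None of the 10 genes passed the threshold. Fgfr1 was the one gene for which each Prmt5sKO library exceeded each Control library, 0 genes showed the opposite, and in the other 9 the groups overlapped. Over all genes tested, 48.8% had groups that did not overlap, 25.2% with both Prmt5sKO libraries higher and 23.6% with both lower, so 1 and 0 of 10 lay under the background in each direction. The median log2 fold change of the 10 genes was 0.35 against 0.02 for all genes. Fgf6, which had no count in Control, had the highest fitted value of the 10, 2.15. Placing it at 2.77, the log2 ratio of the Prmt5sKO group to a floor of 3 counts in Control, could therefore not move the median. At an unadjusted p under 0.05 there was again 1 gene, Fgfr1, where the background was 6.01% higher and 6.95% lower.

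**Figure D1:**
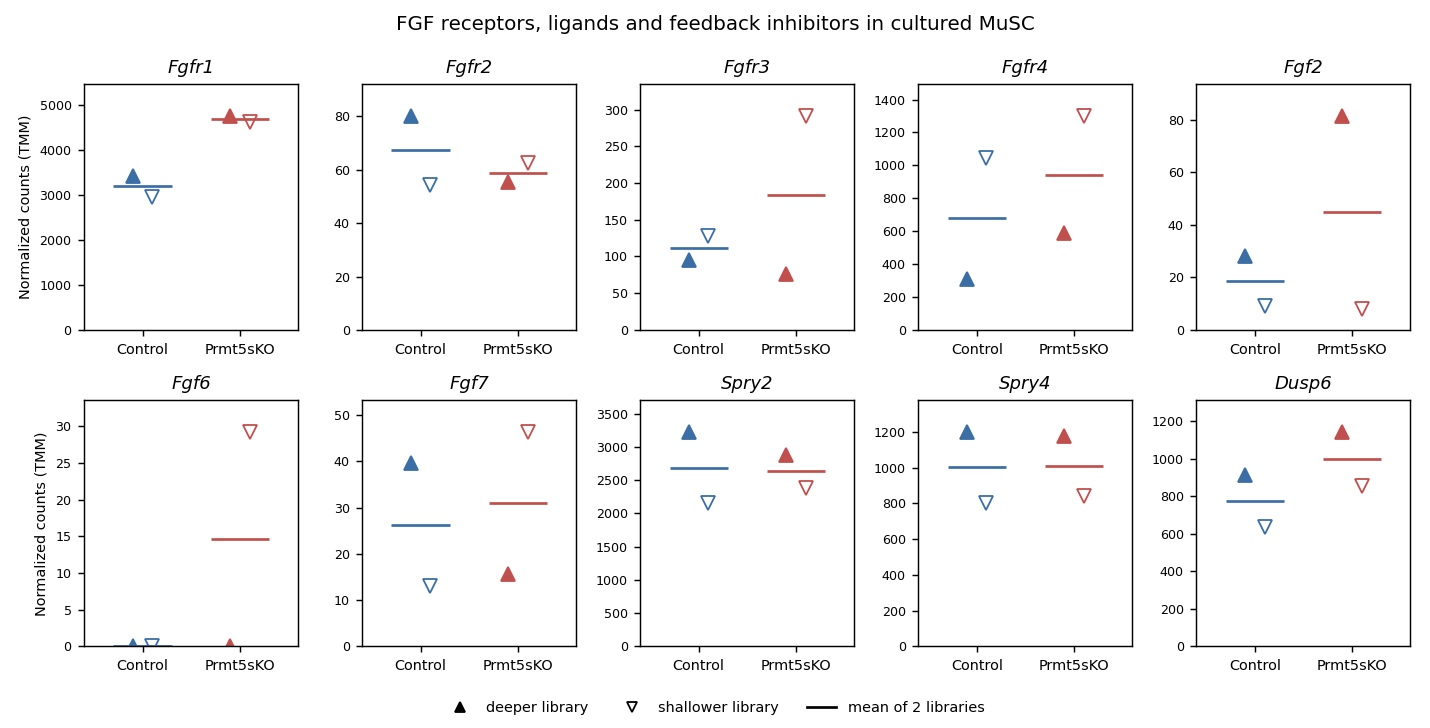
Normalized counts (vertical axes, linear from 0, one scale for each gene) of the 10 genes in the 2 Control and 2 Prmt5sKO libraries, where filled upward triangles are the deeper library, open downward triangles the shallower library and lines the mean of 2. The groups separate for Fgfr1. The deeper library is the higher one in both genotypes for Fgfr1, Fgf2, Spry2, Spry4 and Dusp6, and the shallower one for Fgfr3 and Fgfr4. Depth was ranked within each genotype and does not pair libraries across genotypes.

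Fgfr1 (ENSMUSG00000031565, chr8:25513654-25575718, plus strand; GENCODE vM21 coordinates on GRCm38 here and for the genes that follow) was the most abundant receptor transcript, at 3425 and 2963 normalized counts in Control and 4770 and 4632 in Prmt5sKO. The lowest Prmt5sKO library exceeded the highest Control library, and the libraries of each group lay close to one another. Fgfr1 was 1.48-fold the Control level (log2 fold change 0.56, SE 0.20, 95% interval 0.07 to 1.05, unadjusted p = 0.0317), which did not pass the adjustment (limma-voom adjusted p = 0.346). Fits that left out any 1 library gave log2 fold changes between 0.46 and 0.65. Among the receptors it thus had the smallest standard error and a direction that no single library decided.

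Fgfr4 (ENSMUSG00000005320, chr13:55152640-55168759, plus strand) gave 312 and 1047 normalized counts in Control and 587 and 1301 in Prmt5sKO. The split within each genotype was wider than that between them, and in both genotypes the shallower library was the higher one. The log2 fold change was 0.62 (SE 0.63, 95% interval -0.90 to 2.15, limma-voom adjusted p = 0.680), and without the deeper Control library it was -0.29. Fgfr3 (ENSMUSG00000054252, chr5:33721674-33737068, plus strand) gave 94.9 and 128 normalized counts in Control and 75.6 and 292 in Prmt5sKO, so the Prmt5sKO libraries enclosed the Control libraries. Its log2 fold change was 0.33 (SE 0.73, limma-voom adjusted p = 0.861), and without the shallower Prmt5sKO library, the one with the highest differentiation markers, it was -0.54. The part of differentiation in the Fgfr3 value was not tested. Fgfr2 (ENSMUSG00000030849, chr7:130162451-133123350, minus strand) was low, at 80.2 and 54.5 normalized counts in Control and 55.6 and 62.4 in Prmt5sKO, and the groups overlapped (log2 fold change -0.19, SE 0.47, limma-voom adjusted p = 0.875). Without the deeper Control library the Fgfr2 value was 0.085. Exons of Fgfr2 share 314 bases with Ctbp2 on the same strand, which had between 1337 and 1953 normalized counts in the 4 libraries, so the low Fgfr2 counts are uncertain where reads of the pair could be split. Fewer cells of a type and less RNA per cell cannot be told apart in such bulk libraries.

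Levels of different genes were compared as normalized counts per kilobase of merged exon. The receptors ran, in Control, from Fgfr1 at 323 ± 33.1 (SD, n = 2) and Fgfr4 at 192 ± 147 (SD, n = 2) to Fgfr3 at 15.6 ± 3.31 (SD, n = 2) and Fgfr2 at 6.52 ± 1.76 (SD, n = 2). In Prmt5sKO Fgfr1 reached 476 ± 9.87 (SD, n = 2) and Fgfr4 267 ± 143 (SD, n = 2), while Fgfr3 was at 25.7 ± 21.3 (SD, n = 2) and Fgfr2 at 5.71 ± 0.464 (SD, n = 2). Fgfr1 made up 76.1% and 48.5% of the summed receptor level per kilobase in Control against 72.7% and 53.1% in Prmt5sKO, with Fgfr4 supplying nearly all the rest. The ratio of Fgfr1 to Fgfr4 per kilobase was 3.94 and 1.02 in Control against 2.92 and 1.28 in Prmt5sKO. The receptor mix therefore differed more between the libraries of a genotype than between the genotypes, and Fgfr1 was the higher of the pair in 4 of 4 libraries. The size of these shares and ratios depends on the length used. Per kilobase of the longest transcript, Control means were 634 for Fgfr1 and 204 for Fgfr4, against 933 and 284 in Prmt5sKO.

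**Figure D2:**
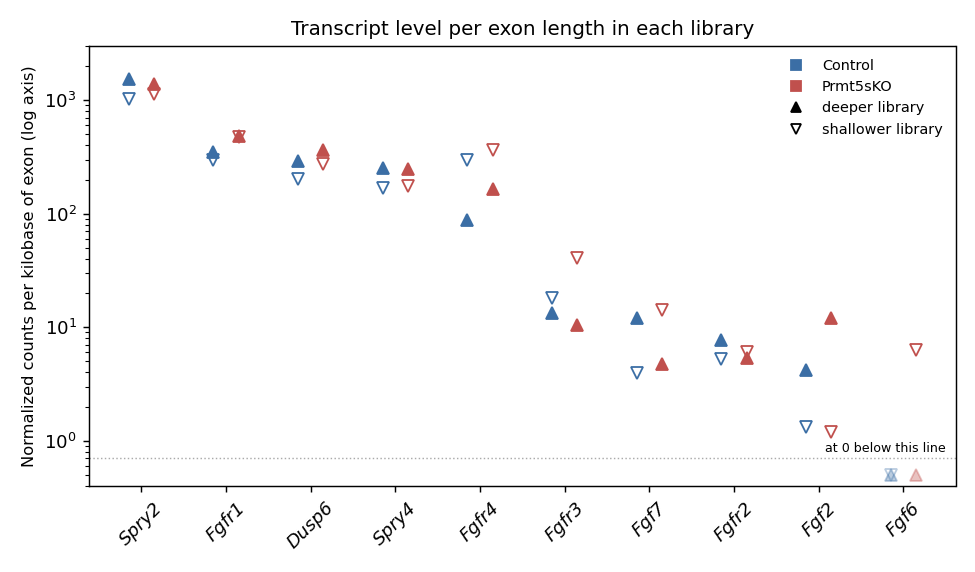
Normalized counts per kilobase of merged exon (vertical log axis) of each gene in each library, ordered by the Control mean, with Control in blue, Prmt5sKO in red, filled upward triangles for the deeper and open downward triangles for the shallower library. Spry2 is highest in both genotypes (1288 and 1260), and the 3 Fgf6 libraries with no count are drawn under the dotted line.

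The ligand transcripts were scarce in both genotypes. Fgf2 (ENSMUSG00000037225, chr3:37348346-37410108, plus strand) had 25 and 7 counts in Control and 110 and 8 in Prmt5sKO, or 28.3 and 9.08 against 81.5 and 8.05 normalized counts. Both shallower libraries were low and the deeper Prmt5sKO library was high, so the Prmt5sKO libraries again enclosed the Control libraries. The log2 fold change of 0.79 (SE 1.34, limma-voom adjusted p = 0.817) became -1.01 without the deeper Prmt5sKO library. Fgf2 shares 640 exon bases with Nudt6 on the opposite strand, and whether counting used strand is not given in the sources used here, so reads of the pair may not be separable. Nudt6 had 53.1 and 63.5 normalized counts in Control and 89.7 and 46.3 in Prmt5sKO, and it too was highest in the deeper Prmt5sKO library.

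Fgf6 (ENSMUSG00000000183, chr6:127015586-127028187, plus strand) had 0 counts in both Control libraries and in the deeper Prmt5sKO library, and 29 counts in the shallower Prmt5sKO library (exact 95% Poisson interval 19.4 to 41.6, counting error only). That library thus held 29.2 normalized counts, 16.1-fold the floor set by 3 counts over the Control group. The Prmt5sKO group as a whole was 6.83-fold that floor. These ratios limit the fold from the Control side only, with Control taken as no higher than the floor. They leave out the counting error and the spread of the Prmt5sKO libraries. It was the library in which 21 of 21 differentiation markers were highest, and the part of that in the Fgf6 value was not tested. The fitted log2 fold change of 2.15 had a 95% interval of -4.26 to 8.56 and did not pass the threshold (limma-voom adjusted p = 0.736). With a single library above 0 there is no replicate of the difference within Prmt5sKO. Fgf7 (ENSMUSG00000027208, chr2:126034658-126091185, plus strand), a ligand made mainly by mesenchymal cells, had 35 and 10 counts in Control and 21 and 46 in Prmt5sKO, or 39.6 and 13.0 against 15.6 and 46.3 normalized counts. The groups overlapped, with the lowest and the highest value in the shallower library of Control and of Prmt5sKO, and a log2 fold change of 0.10 (SE 0.89, limma-voom adjusted p = 0.969). Without the shallower Control library the Fgf7 value was -0.62, and without the shallower Prmt5sKO library -0.59. Of 10 fibroblast and fibro-adipogenic markers 9 had a row, and their levels summed to 19505 and 7714 normalized counts in Control against 18080 and 29287 in Prmt5sKO, lowest and highest in the same libraries as Fgf7. Col1a2 and Col3a1 supplied nearly all of these sums, and other members of the list ran differently. Dcn had 7.91 and 115 normalized counts in Control against 13.3 and 16.1 in Prmt5sKO, highest where Fgf7 was lowest, and Pdgfra had 38.4 and 44.1 against 43.7 and 17.1, lowest where Fgf7 was highest. Lum was at 0 in each library but the shallower one of Control, where it had 27.2, and the part of such cells in the Fgf7 value was not tested.

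Spry2 (ENSMUSG00000022114, chr14:105891947-105896819, minus strand) was the most abundant of the 10 transcripts for its length, at 1288 ± 360 (SD, n = 2) normalized counts per kilobase in Control and 1260 ± 167 (SD, n = 2) in Prmt5sKO. In normalized counts it gave 3218 and 2157 in Control and 2876 and 2384 in Prmt5sKO, so both Prmt5sKO libraries lay between the Control libraries. The log2 fold change was -0.01 (SE 0.26, limma-voom adjusted p = 0.990), and its 95% interval of -0.66 to 0.64 holds no 2-fold difference in either direction. Scaling by library size alone, which moved the median of all genes from 0.02 to 0.13, gave 0.10 for Spry2. Leaving out the deeper Control library gave 0.26 and leaving out the shallower Prmt5sKO library gave 0.12.

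Spry4 gave 1197 and 804 normalized counts in Control and 1177 and 841 in Prmt5sKO, again with both Prmt5sKO libraries between the Control libraries. The log2 fold change was 0.02 (SE 0.29, 95% interval -0.69 to 0.73, limma-voom adjusted p = 0.982). It was -0.25 without the shallower Control library, -0.23 without the deeper Prmt5sKO library and -0.037 after thinning every library to the smallest total. Dusp6 (ENSMUSG00000019960, chr10:99263231-99267489, plus strand) gave 914 and 637 normalized counts in Control and 1140 and 855 in Prmt5sKO. One Prmt5sKO library exceeded both Control libraries and the other fell between them (log2 fold change 0.37, SE 0.28, 95% interval -0.31 to 1.05, limma-voom adjusted p = 0.583). Leaving out each library in turn kept the Dusp6 value between 0.12 and 0.62. Per kilobase, Dusp6 (248 ± 62.6, SD, n = 2), Spry4 (210 ± 58.4, SD, n = 2) and Fgfr4 formed a run in Control whose neighbours overlapped, below Spry2 and Fgfr1 and above the remaining genes, which did not overlap them. The same 3 genes formed that middle run in Prmt5sKO, at 319 ± 64.4 (SD, n = 2) for Dusp6 and 212 ± 50.0 (SD, n = 2) for Spry4. At the low end came Fgf7 at 8.09 ± 5.79 in Control and 9.52 ± 6.68 in Prmt5sKO (SD, n = 2 each), Fgf2 at 2.75 ± 2.00 and 6.60 ± 7.66 (SD, n = 2 each), and Fgf6 at 0 and 3.13 ± 4.43 (SD, n = 2 each).

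**Figure D3:**
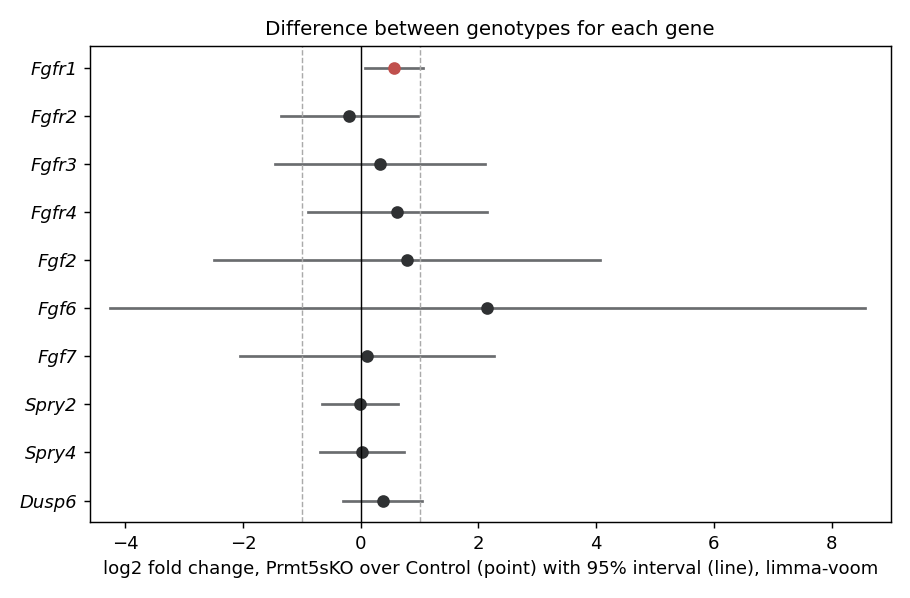
Log2 fold change of Prmt5sKO over Control from limma-voom (horizontal axis) for each gene, where points are estimates, lines are 95% intervals and dashed lines mark a 2-fold difference. The red point, Fgfr1, has groups that do not overlap and an interval of 0.07 to 1.05, the intervals of Spry2 and Spry4 lie inside the dashed lines, and the interval of Fgf6 depends on the offset that the fit adds to counts of 0.

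The 3 feedback inhibitors were each higher in the deeper library of both genotypes. The ratio of the deeper to the shallower library in normalized counts was 1.49 for Spry2 in Control and 1.21 in Prmt5sKO. For Spry4 the ratios were 1.49 and 1.40, and for Dusp6 1.44 and 1.33. The ratio of Spry2 to Spry4 in normalized counts stayed at 2.69 and 2.68 in Control against 2.44 and 2.83 in Prmt5sKO. In all, 5 of the 10 genes were higher in the deeper library of both genotypes and 2 were lower, where 23.2% of all genes tested were higher and 20.7% were lower. Of the 21 differentiation markers, 20 were higher in the deeper Control library, as the inhibitors were, while 21 were lower in the deeper Prmt5sKO library, where the inhibitors were again higher. The part of differentiation in the inhibitor values was not tested.

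Relative to Fgfr1, Spry2 and Spry4 were lower in Prmt5sKO without overlap of the groups, whereas the Dusp6 groups overlapped. Normalized counts of Spry2 per normalized count of Fgfr1 were 0.940 and 0.728 in Control against 0.603 and 0.515 in Prmt5sKO, so these groups did not overlap. The same ratio was 0.349 and 0.271 against 0.247 and 0.182 for Spry4, again without overlap, and 0.267 and 0.215 against 0.239 and 0.185 for Dusp6, with overlap. The ratios were chosen after the values were seen, carry no test, and contain the Fgfr1 difference already given.

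**Figure D4:**
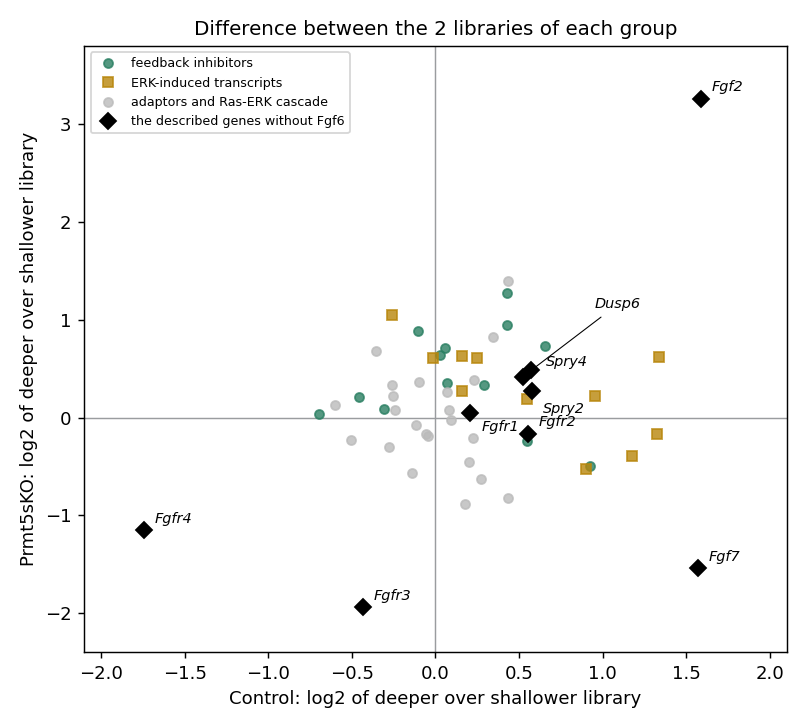
Log2 ratio of the deeper over the shallower library in Control (horizontal axis) and in Prmt5sKO (vertical axis) for 9 of the 10 genes (black diamonds) and for the other tested feedback inhibitors, ERK-induced transcripts and cascade genes. Spry2, Spry4 and Dusp6 sit together in the upper right, and Fgf6 and Egr2 are left out because a library of theirs had no count.

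The wider pathway was read from 5 lists, which held 75 genes with a row beside the 10, of which 72 were tested. None of the 72 passed the threshold, 19 were higher and 13 lower in both Prmt5sKO libraries, and the median log2 fold change was 0.04. The background in these directions was 25.2% and 23.6% of all genes tested, for each list below as well. Counts and medians of each list below include the described genes in it. These are Fgf2, Fgf6 and Fgf7 for ligands, and Spry2, Spry4 and Dusp6 for feedback inhibitors.

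Of 22 ligand genes 11 had a row and 9 were tested, 2 of them higher in both Prmt5sKO libraries and 0 lower, and the list median of log2 fold changes was 0.79, or 0.044 without the shallower Control library. The median of 0.79 was the value of Fgf2 itself, which became -1.01 without the deeper Prmt5sKO library. Fgf13, an intracellular FGF homologue that does not act through the receptors, had 125 and 118 normalized counts in Control and 240 and 270 in Prmt5sKO (log2 fold change 1.05, SE 0.33, limma-voom adjusted p = 0.308). Fgf21, a hormone-like FGF known as a stress-induced factor in muscle, had 4.52 and 3.89 in Control and 24.4 and 322 in Prmt5sKO (limma-voom adjusted p = 0.525), most of it in the library with the highest differentiation markers.

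Of 20 genes for co-receptors and ligand handling 18 were tested, 7 higher in both Prmt5sKO libraries and 2 lower, and the list median of log2 fold changes was 0.11. Gpc4, a heparan sulphate glypican, had 566 and 314 normalized counts in Control and 854 and 750 in Prmt5sKO (limma-voom adjusted p = 0.336). Sulf2, which trims sulphate from heparan chains, had 1370 and 193 in Control and 1892 and 2336 in Prmt5sKO (limma-voom adjusted p = 0.370), and the shallower Control library alone was low. The glypicans did not share a direction: Gpc1 had 6428 and 4831 against 6584 and 12834 normalized counts, and Gpc6 had 778 and 996 against 470 and 684. Fgfrl1, a receptor relative without a kinase domain, overlapped between the groups at 678 and 551 against 308 and 589.

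All 23 adaptor and cascade genes were tested, 4 higher and 4 lower in both Prmt5sKO libraries, and the list median of log2 fold changes was -0.06, or 0.048 under scaling by library size alone. Araf, a kinase of the RAF family, had 855 and 888 normalized counts in Control against 1298 and 1457 in Prmt5sKO (log2 fold change 0.66, SE 0.21, limma-voom adjusted p = 0.310). Shc1, an adaptor of receptor kinases, had 2347 and 1848 against 4922 and 2781. The phosphatase gene Ptpn11, which relays the receptor signal to Ras, was lower at 4181 and 5059 against 2529 and 3111 (log2 fold change -0.71, SE 0.22, limma-voom adjusted p = 0.312).

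Of 17 feedback inhibitors 16 had a row, Spry3 being the one without, and all 16 were tested, 2 higher and 4 lower in both Prmt5sKO libraries, and the list median of log2 fold changes was 0.02. Dusp9, a phosphatase that acts on ERK like Dusp6, lay furthest below Control, at 436 and 708 normalized counts in Control and 137 and 134 in Prmt5sKO. Its log2 fold change of -2.02 (SE 0.37, unadjusted p = 0.00148, limma-voom adjusted p = 0.217) had the smallest unadjusted p of the wider lists, and it did not pass the threshold. Spry1, the Sprouty known from quiescent satellite cells, had 382 and 201 in Control and 491 and 692 in Prmt5sKO (log2 fold change 1.04, SE 0.38, limma-voom adjusted p = 0.350), whereas its relatives Spry2 and Spry4 overlapped. Il17rd, a membrane inhibitor of FGF signalling, had 154 and 114 against 352 and 182, and the ubiquitin ligase gene Cbl 1155 and 1586 against 968 and 838. Of the 16 inhibitors, 10 were higher in the deeper library of both genotypes and 0 were lower, beside 23.2% and 20.7% of all genes. These inhibitors include Spry2, Spry4 and Dusp6, for which the same order was given above.

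All 12 ERK-induced transcripts were tested, 4 higher and 3 lower in both Prmt5sKO libraries. Over all genes tested, 25.2% were higher and 23.6% lower. The list median of log2 fold changes was 0.19. Genes named for their low unadjusted p lay on both sides: Egr1 had 1333 and 526 normalized counts in Control and 2689 and 1747 in Prmt5sKO (log2 fold change 1.35, SE 0.46, limma-voom adjusted p = 0.330), and Etv1 258 and 176 against 428 and 376. Etv4 had 1562 and 1398 against 949 and 787 (log2 fold change -0.77, SE 0.21, limma-voom adjusted p = 0.282), and Fosl1 1324 and 1336 against 885 and 578. Etv1 and Etv4 are ETS factors of one subfamily, and their values lay on opposite sides of Control. Etv5, a further ETS factor of the list, overlapped between the groups at 1282 and 1148 against 1308 and 844. Of the 12, 7 were higher in the deeper library of both genotypes and 0 were lower, beside 23.2% and 20.7% of all genes tested. Depth was ranked within each genotype, so this count does not rest on paired libraries.

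**Figure D5:**
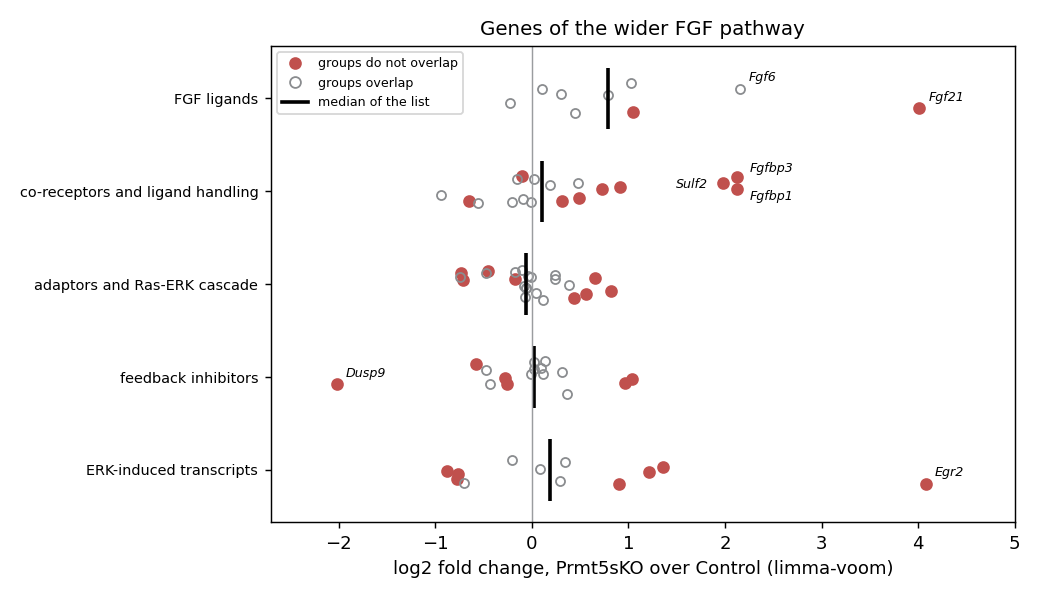
Log2 fold change of Prmt5sKO over Control from limma-voom (horizontal axis) for the tested genes of 5 pathway lists, the described genes included, where filled red points have groups that do not overlap, open points overlap and black bars are list medians. No point passed the adjusted threshold, Dusp9 is the lowest at -2.02, and the highest are Egr2, with 70 and 0 counts in Control, and Fgf21, with 4 and 3.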

How the data were processed

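The deposited table gives the authors' signal values, group means of counts normalized by size factors, and a mean over the 4 libraries. Reads had been trimmed with Reaper, aligned with STAR 2.4.0a to GRCm38 and compared with DESeq2 (version 1.62 in the submitters' processing notes). The paper's methods say that each sequencing run held 2 libraries, and which shared a run is not given in the sources used here. The table's fold changes, their standard errors, p-values and adjusted p-values are the authors' comparison and were not used. As the columns used are group means, whole counts of each library were recovered as sums of 2 steps, one for each library, for 20065 of 20065 genes within a relative error of 1e-12. The lowest deposited mean was 0.900, so genes without a row are not necessarily at 0. Of the 20065 identifiers 19782 had a symbol.

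The 2 libraries of each group were compared with limma-voom (limma 3.58.1, R 4.3.3) in place of a count model, with TMM factors (30% of ratios and 5% of levels trimmed), genes averaging 5 normalized counts or more, and Benjamini-Hochberg adjustment. Groups overlap unless each library of one exceeds each of the other. Alternatives were other scalings, filters, pseudocounts, robust moderation, thinning, a replicate block and each library left out. Named genes outside the 10 were at most 4 of each list, those with non-overlapping groups and the lowest unadjusted p, with Spry1, Spry3 and Fgfrl1. Etv5 was added beside Etv1 and Etv4. A gene that this rule named is not reported here. The genes, lists and tests were chosen with earlier results of these data known. Recovery and fit were tested on simulated data. Intervals of counts cover counting error only, with 95% confidence and a floor of 3 counts. Promoters are from RefSeq.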

Additional observations from a re-analysis of the deposited data

How the results depend on the processing

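None of the 10 genes passed the threshold under any setting run, and Fgfr1, Fgf6 and Dusp6 kept their direction in every fit that tested them. Fgf6 was not tested at a minimum mean of 20 or without the shallower Prmt5sKO library. The count of called genes over the whole table was 0 under each scaling, filter, pseudocount, robust and thinned setting, and 0 to 489 with a library left out (489 without the deeper and 55 without the shallower Prmt5sKO library, where the lone library is assumed to vary like the other group). Leaving out a library gave log2 fold changes of -0.45 to 0.085 for Fgfr2, -0.54 to 1.41 for Fgfr3, -0.29 to 1.48 for Fgfr4, -1.01 to 2.25 for Fgf2, -0.62 to 0.96 for Fgf7, -0.29 to 0.26 for Spry2 and -0.25 to 0.30 for Spry4. Spry2 was also reversed by scaling on library size alone, at 0.10, and Spry4 by thinning, at -0.037. The count of the 10 genes higher in both Prmt5sKO libraries was 2 to 6 and the count lower in both 0 to 3 with a library left out, since a lone library overlaps less. List medians ran from 0.044 to 1.14 for ligands, 0.033 (without the shallower Control library) to 0.27 (without the deeper Control library) for co-receptors and ligand handling, -0.046 to 0.0076 for cascade genes, -0.28 to 0.23 for feedback inhibitors and -0.21 to 0.48 for ERK-induced transcripts with a library left out, and the cascade median was 0.048 with scaling on library size alone. The co-receptor median was 0.028 with no filter and 0.21 with scaling on library size alone. The length of the longest transcript in place of merged exons raised Fgfr1 in Control from 323 to 634 normalized counts per kilobase and left it below Spry2. It raised Fgfr4 in Control only from 192 to 204.

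The labels number the libraries of each group 1 and 2, but the columns carry no numbers, so pairing could not be taken from them. A replicate block pairing the libraries by depth called 0 genes, and deviations from the group means correlated at -0.36 over 10339 genes. The crossed pairing, chosen after seeing the data, called 346 genes, none of them among the 10. The 95% intervals of the low transcripts Fgf2 (-2.49 to 4.06) and Fgf7 (-2.06 to 2.27) span more than a 2-fold difference in both directions. Differences of that size were thus not detectable with 2 libraries per group and this spread between them.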
